A study of Mus musculus with 18 samples.

Results

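The change from MDX to dKO muscle was compared between heart and leg. For each probe set the comparison took the log2 change from MDX to dKO in heart and subtracted the log2 change from MDX to dKO in leg, so that a negative value means a lower change in heart than in leg. Of the series' 18 arrays 12 belonged to the comparison, chosen by tissue and genotype in their titles, with 3 arrays in each of 4 groups. The groups were heart from MDX mice, heart from dKO mice, leg muscle from MDX mice and leg muscle from dKO mice, all taken at 8 weeks of age, and MDX is the control by the labels. Arrays of the same number in one tissue were paired, which gave 3 heart pairs and 3 leg pairs, and 1 double difference for each number. The remaining 6 arrays, of extraocular muscle, entered only the estimate of the spread.

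MDX mice lack the muscle protein dystrophin. By usual usage dKO mice lack dystrophin and its relative utrophin as well, so that loss of dystrophin is common to all 4 groups, but the labels do not spell dKO out. They give neither the strain background nor which muscles of the leg were taken. They also do not say whether the arrays of a group came from separate animals, or whether a heart and a leg of the same number came from one mouse. Every p-value rests on the spread among these samples alone, and part or all of that spread may be technical.

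Dystrophin ties the actin skeleton of a muscle fibre to a complex of membrane proteins and, through it, to the matrix outside the fibre. Utrophin can take its place along the membrane when dystrophin is missing. In damaged skeletal muscle, fibres die and are rebuilt from satellite cells through embryonic forms of the contractile proteins, while macrophages and matrix accumulate; heart muscle has very little capacity for such rebuilding. Slow skeletal fibres and the ventricle share several contractile proteins encoded by the same genes, among them the beta myosin heavy chain Myh7, the regulatory light chain Myl2 and troponin C, Tnnc1.

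The change from MDX to dKO differed between heart and leg for 6 of 8888 probe sets tested (0.0675% of them) in the fit with the replicate block, at an adjusted p under 0.05 (limma, Benjamini-Hochberg). All 6 were lower in heart than in leg, and 0 were higher. The 6 were Myl2, Myh7, Acta1, Tnnc1, Kcne1l and the unnamed probe set 98501_at. All of them rose in leg, and 0 of them passed the test in heart, where the fitted change was below 0 for 4. Without the replicate block 0 probe sets passed (0%). Without the arrays numbered 3 there were also 0, against 1 without those numbered 1 and 1 without those numbered 2. At an unadjusted p under 0.05, 535 probe sets were lower (6.02%) and 450 higher (5.06%) in heart than in leg with the block. Both directions together made 985, against 444 expected by chance for both together.

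Within each tissue the counts were as follows. In leg 90 probe sets rose from MDX to dKO (1.01%) and 17 fell (0.191%). In heart 0 passed (0%), and the smallest adjusted p was 0.055. An unadjusted p under 0.05 (limma) was reached by 494 probe sets in heart and 1585 in leg, against 444 expected by chance. The leg count of 107 rested on the block and on single arrays. It was 5 without the block and 366 with the block as a random effect. Another fit added to the block a genotype change by array number, shared by the tissues, and gave 4. Its leg change is the one fitted for number 1, so that count is not comparable with the others. It was 3, 2 and 0 without the arrays numbered 1, 2 and 3, it was 31, 8 and 60 without 1 leg array of those numbers, and it was 77, 71 and 68 without 1 heart array of those numbers. Genes said to have risen or fallen in leg did so in the fit that gave these 107 calls. The probe sets that rose in leg had a median change of 1.00 in leg and 0.00135 in heart, where 45 of the 90 were above 0. Those that fell in leg had a median of -0.86 in leg and -0.15 in heart, with 12 of 17 below 0 in heart. Over all probe sets tested the changes had a standard deviation of 0.36 in leg and 0.25 in heart, and their correlation across probe sets, which are not independent replicates, was r = 0.0694 with no array shared. Probe sets whose 3 dKO arrays all lay to one side of the 3 MDX arrays numbered 884 in leg (9.95%) and 348 in heart (3.92%), and 63 did so in both tissues (0.709%).

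**Figure D1:**
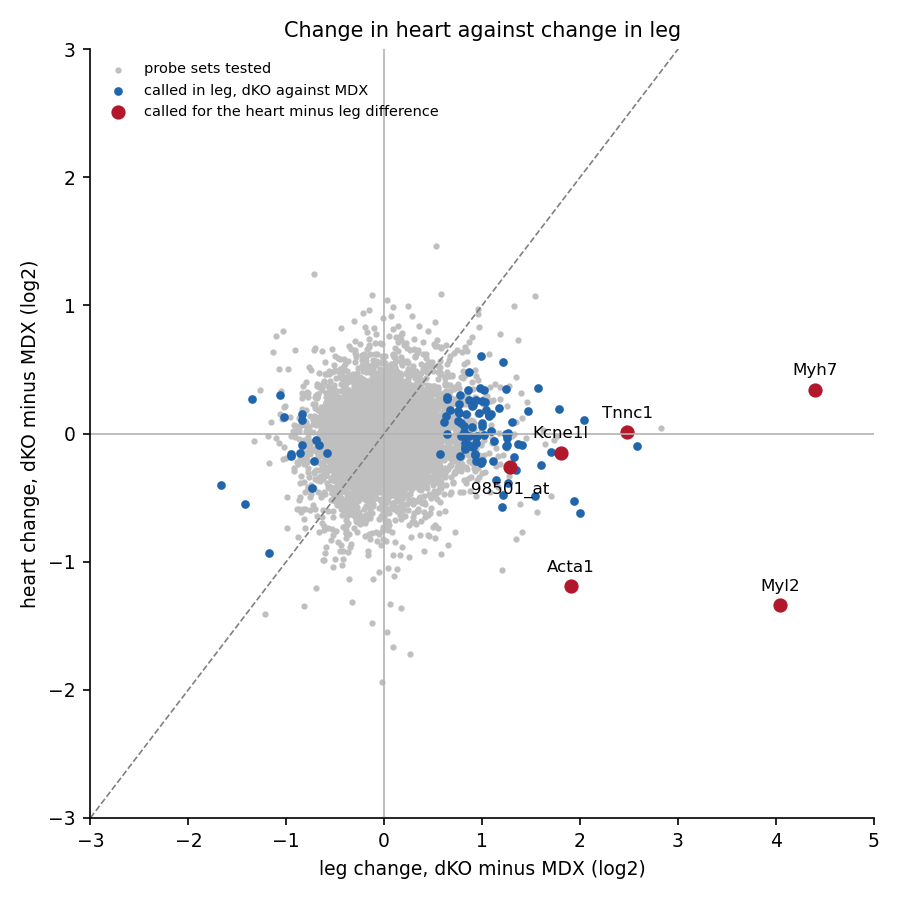
Change from MDX to dKO in heart (vertical axis, log2) against the change in leg (horizontal axis, log2), 1 point for each of the 8888 probe sets tested, with the dashed line marking equal changes. The 107 probe sets called in leg (blue, or red where also called for the difference) spread from -1.34 to 0.60 on the vertical axis, and the 6 called for the difference (red) lie below the dashed line.

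The arrays numbered 3 differed in brightness from those numbered 1 or 2, and they were not alike among themselves. Array means with 2% trimmed from each tail were 1500.69 to 1501.15 in all 12, so the values had been scaled before deposit. The 4 arrays numbered 3 had medians of 525.6 to 573.75 and maxima of 47024 to 73099, against 629.1 to 662.6 and 33355 to 43275 on the other 8. Within the leg pair numbered 3 the maximum was 73099 in MDX and 47024 in dKO. Within a tissue, the dKO and the MDX array of one number departed from their groups' means in a like way, with r of 0.415 to 0.751 across probe sets in 6 of 6 pairs. The number of arrays limits the precision. Tissue markers went with the labels: Myh6, the alpha myosin heavy chain of the heart, read 6874 to 68085 in heart and 53.6 to 132.9 in leg, and Tnnt3, fast skeletal troponin T, read 19491 to 73099 in leg and 40.5 to 385 in heart.

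With probe set 92507_at, Utrn, the gene that separates dKO from MDX in usual usage, had a lower reading in dKO than in MDX in both tissues. The difference between its changes did not pass with either probe set. Its probe set 92507_at read 671.2, 587.6 and 672.1 on MDX heart arrays 1 to 3 and 219.9, 292.3 and 262.1 on the dKO heart arrays. In leg it read 437.6, 492.5 and 550.7 in MDX and 239.6, 259.8 and 298.2 in dKO. The dKO readings lay below every MDX reading in both tissues, and none of the 6 dKO arrays read 0. The change was -0.93 in heart and -0.61 in leg, and neither passed with the block (adjusted p = 0.128 and 0.0602, limma). The heart minus leg difference was -0.32 ± 0.19 (SE, adjusted p = 0.568, limma). A two-sided exact permutation of the tissues over the 6 pair differences gave p = 0.1, the smallest that its 20 assignments allow. The second Utrn probe set, 92508_s_at, had a difference of -0.37 ± 0.42 (adjusted p = 0.8, limma; exact permutation p = 0.5). Its dKO readings lay below every MDX reading in heart but not in leg. In leg it read 437.8, 624.2 and 738.2 in MDX and 645.7, 430.6 and 233 in dKO. Its leg change was -0.39 and did not pass (adjusted p = 0.535, limma).

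Dmd, which encodes dystrophin, is affected in both genotypes. Its probe set 93623_at read 279, 221.7 and 212.3 in MDX heart, 284.7, 154.1 and 315.2 in dKO heart, 502.1, 216.3 and 229.2 in MDX leg and 409.1, 262 and 71 in dKO leg. The groups overlapped in both tissues. The heart minus leg difference was 0.29 ± 0.26 (SE, adjusted p = 0.732, limma; two-sided exact permutation p = 0.5), and it was -0.10 without the arrays numbered 3. Where the probe sets of Utrn and Dmd lie relative to the changed parts of the genes was not checked.

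The clearest differences between heart and leg were in genes of slow and cardiac contractile proteins. Tnnc1 encodes troponin C of slow skeletal and heart muscle, the calcium sensor of the thin filament. Its probe set 101063_at read 2344, 1361 and 2348 on the MDX leg arrays and 11874, 9672 and 14006 on the dKO leg arrays. In heart it read 23055.5, 13655 and 46178.5 in MDX and 18720.5, 18929 and 42007 in dKO. The leg groups did not overlap and the heart groups did, with array 3 the brightest of its group in heart. Tnnc1 rose 5.58-fold in leg (log2 2.48, adjusted p = 0.000301, limma) and had a change of 0.0107 in heart (adjusted p = 0.998, limma). The heart minus leg difference was -2.47 ± 0.23 (SE, adjusted p = 0.00617, limma), and the double differences were -2.56, -2.22 and -2.63 for numbers 1, 2 and 3. Heart MDX lay 3.53 above leg MDX on the log2 scale, and heart dKO 1.06 above leg dKO.

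Myl2, the regulatory light chain of ventricular and slow-fibre myosin, had the largest difference of the 6. Its probe set 93050_at read 2478, 309.2 and 1094 in MDX leg and 18139, 14862 and 25842 in dKO leg. In heart it read 3140, 339.6 and 30900 in MDX and 1740, 60.5 and 7244 in dKO. The dKO leg arrays were alike and all above MDX, whereas the heart arrays of both genotypes followed the array number, lowest on number 2 and highest on number 3. The rise in leg was 16.5-fold (log2 4.05, adjusted p = 0.00193, limma), and the change in heart was -1.34 and did not pass (adjusted p = 0.634, limma). Heart differed from leg by -5.39 ± 0.52 (adjusted p = 0.00617, limma), with double differences of -3.59, -6.14 and -6.43. The log2 gap between heart and leg went from 1.68 in MDX to -3.71 in dKO. Although Myl2 is a light chain of ventricular myosin, the probe set read only 339.6 in MDX and 60.5 in dKO on the heart arrays numbered 2. What the probe set measured in heart was not tested, so the heart part of the difference and of the gap is uncertain.

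Myh7, the beta myosin heavy chain of slow fibres and of the heart, had the largest rise in leg of the 6. Its probe set 98616_f_at read 241.2, 1999 and 363 in MDX leg and 17632, 15031 and 16145 in dKO leg. In heart it read 7783, 7145 and 7815 in MDX and 12986, 8433 and 8143 in dKO. Neither tissue's groups overlapped, and dKO heart lay only a little above MDX heart on arrays 2 and 3. Myh7 rose 21.1-fold in leg (log2 4.40, adjusted p = 0.00193, limma), with a change of 0.34 in heart (adjusted p = 0.965, limma). The heart minus leg difference was -4.06 ± 0.56 (adjusted p = 0.0441, limma; 0.115 without the block), with double differences of -4.72, -2.58 and -4.89. Heart lay 3.32 above leg in MDX and 0.74 below it in dKO on the log2 scale (-0.74). A second Myh7 probe set, 161547_f_at, read 168.3 to 347.8 in leg and 234.8 to 659.7 in heart, with a difference of -0.90 that did not pass (adjusted p = 0.27, limma).

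Acta1 encodes skeletal alpha-actin, the thin-filament actin of adult skeletal muscle, which the heart also makes early in life and under load. Its probe set 100381_at read 14480, 13100 and 14452 in MDX heart and 4861, 6807 and 6606 in dKO heart. In leg it read 256.1, 247.7 and 6656 in MDX and 1282, 1915 and 20656 in dKO. The heart groups did not overlap, with dKO lower, and the leg groups did, because both leg arrays numbered 3 were above those numbered 1 and 2 of their group. Acta1 rose in leg with the block (log2 1.90, 3.74-fold, adjusted p = 0.0158, limma), and its heart change of -1.19 did not pass (adjusted p = 0.433, limma). Between heart and leg the change differed by -3.10 ± 0.37 (adjusted p = 0.0208, limma), with double differences of -3.32, -3.26 and -2.72. On 2 of 3 MDX leg arrays the probe set read below 300 although the gene is a main product of skeletal muscle, and what the probe set measured there was not tested.

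**Figure D2:**
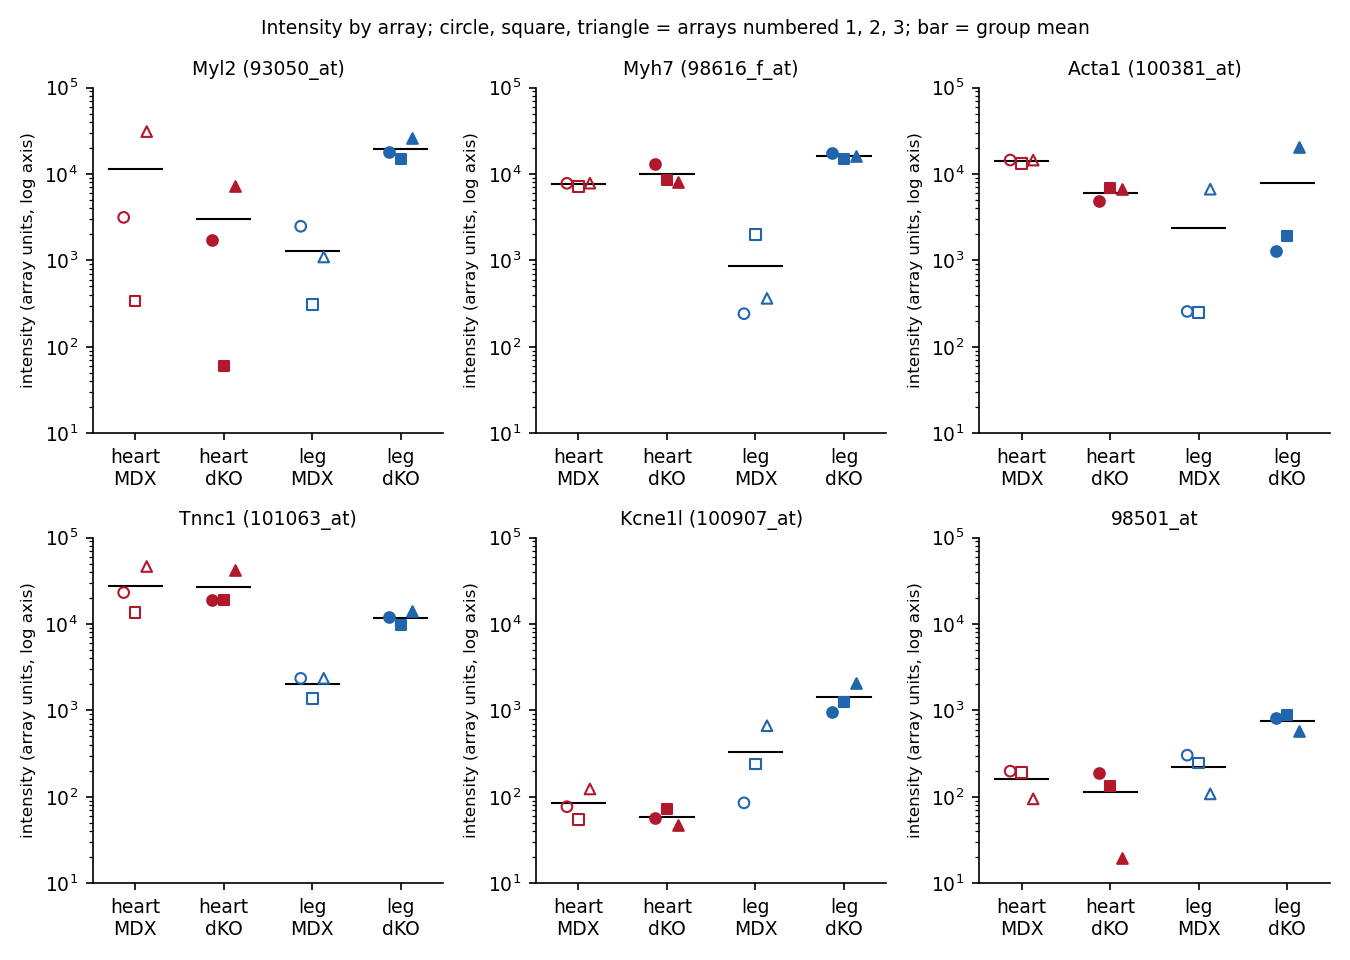
Intensity (array units, log axis) of the 6 probe sets called for the heart minus leg difference on each of the 12 arrays, with open symbols for MDX, filled symbols for dKO, a circle, square and triangle for arrays 1, 2 and 3, and a bar at each group mean. In leg the dKO symbols of Myl2, Myh7, Tnnc1, Kcne1l and 98501_at all lie above the MDX symbols, and in heart the groups of Myl2, Tnnc1, Kcne1l and 98501_at overlap.

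Kcne1l, now also called Kcne5, encodes a small membrane protein that associates with potassium channels. Its probe set 100907_at read 85, 238.6 and 663.4 in MDX leg and 958.8, 1253 and 2077 in dKO leg. In heart it read 76.7, 54.2 and 123 in MDX and 57.5, 71.9 and 46.7 in dKO. All heart readings were below the offset of 166.7 that was added before the logarithm, so a fold between heart groups would be compressed. The gene rose 3.49-fold in leg (log2 1.80, adjusted p = 0.00193, limma) and had a heart change of -0.15 (adjusted p = 0.965, limma). Its heart change differed from its leg change by -1.95 ± 0.23 (adjusted p = 0.0208, limma), with double differences of -2.28, -1.70 and -1.88.

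The probe set 98501_at, for which the probe table gave no gene symbol, read 302.8, 244.6 and 107.9 in MDX leg and 821.1, 880.8 and 574.4 in dKO leg. In heart it read 197.9, 191.7 and 94.5 in MDX and 189.3, 133.7 and 19.8 in dKO. It rose 2.44-fold in leg (log2 1.28, adjusted p = 0.00931, limma), and its heart change of -0.26 did not pass (adjusted p = 0.943, limma). This gave a difference of -1.54 ± 0.21 (adjusted p = 0.0441, limma), with double differences of -1.11, -1.60 and -1.92.

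All 6 calls ended without the block, and all 6 ended when the arrays numbered 3 were left out. Without the arrays numbered 3 the differences were -4.86 for Myl2, -3.65 for Myh7, -3.29 for Acta1, -2.39 for Tnnc1, -1.99 for Kcne1l and -1.36 for 98501_at, with adjusted p of 0.247 to 0.351 (limma). The 1 call left without the arrays numbered 1 was Myl2, and the 1 left without those numbered 2 was Myh7. With any 1 of the 12 arrays left out, Tnnc1 and Myl2 kept their calls. Acta1 lost its call without a heart array numbered 1 or 3 or a leg array numbered 1 or 2 (-3.29 to -2.89 over all left-out arrays), and so did Kcne1l (-2.13 to -1.77). Myh7 lost its call without any 1 heart array or a leg array numbered 1 or 3 (-4.86 to -3.54), and 98501_at without any 1 of the 12 (-1.76 to -1.36). Without the block the values were those of the fit above, and the adjusted p rounded to 1 for every probe set of the 6 except Myh7 (0.115).

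Promoter sequence was read for the called genes because they moved together in leg. All 5 named genes had an entry in the RefSeq table (build GRCm38.p6), and the 250 bases before the most upstream listed start were searched on both strands. The search covered the E box bound by myogenic factors, spelled CANNTG. It covered the core promoter's box spelled TATAAA, and the muscle element known as MCAT, to which TEAD factors bind, spelled CATTCC. It also covered the site of GATA factors in the spelling AGATAA, and the MEF2 site and CArG box by their usual consensus. The 4 windows with an MCAT match are given 5' to 3' on the gene's own strand, with capitals marking every match to any of these motifs.
Tnnc1, chr14:31208062-31208311, plus strand: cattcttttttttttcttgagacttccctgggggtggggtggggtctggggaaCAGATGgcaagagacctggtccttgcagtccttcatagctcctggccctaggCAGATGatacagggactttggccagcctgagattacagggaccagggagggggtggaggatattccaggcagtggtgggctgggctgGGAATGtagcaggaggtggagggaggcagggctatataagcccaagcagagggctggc
Myh7, chr14:54994627-54994876, minus strand: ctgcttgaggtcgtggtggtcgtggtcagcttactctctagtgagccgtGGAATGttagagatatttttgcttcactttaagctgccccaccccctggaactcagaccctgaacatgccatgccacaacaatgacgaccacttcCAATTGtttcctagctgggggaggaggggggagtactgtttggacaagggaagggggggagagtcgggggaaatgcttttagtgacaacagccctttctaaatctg
Acta1, chr8:123894776-123895025, minus strand: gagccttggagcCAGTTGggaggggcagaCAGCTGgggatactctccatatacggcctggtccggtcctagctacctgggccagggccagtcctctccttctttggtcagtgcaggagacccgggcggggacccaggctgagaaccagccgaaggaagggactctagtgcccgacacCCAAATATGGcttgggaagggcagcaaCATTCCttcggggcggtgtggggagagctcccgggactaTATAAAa
Kcne1l, chrX:142306199-142306448, minus strand: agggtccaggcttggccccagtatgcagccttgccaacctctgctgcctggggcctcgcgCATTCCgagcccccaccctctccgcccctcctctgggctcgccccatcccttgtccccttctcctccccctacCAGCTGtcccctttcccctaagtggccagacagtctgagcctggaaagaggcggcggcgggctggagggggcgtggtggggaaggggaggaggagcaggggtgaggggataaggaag
The MCAT letters, read as CATTCC or on the other strand as GGAATG, were found in these 4 of the 5 windows, and in 12.6% of the 27025 genes' windows. The first base of the match lay 58 bases before the start in Tnnc1, 201 in Myh7, 46 in Acta1 and 190 in Kcne1l. All 5 windows held an E box, as did 66.1% of all windows. The Acta1 window also held a CArG box 73 bases before the start (1.41% of all windows) and a TATA box 7 bases before it (13%). These distances are from the listed start, which was not checked further. No match overlapped another in the 4 windows printed. The Myl2 window, not printed, held a GATA site (10.2% of all windows). It lay before the more upstream of 2 listed starts, and so did the printed Myh7 window. The MEF2 search matched 0 of the 5 windows and 3.03% of all. A match is a run of letters, and binding there was not measured.

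The list of slow contractile proteins, to which Tnnc1, Myl2 and Myh7 belong, had the lowest median difference of the 32 gene lists described. Of its 12 genes tested 3 were lower in heart than in leg, 11 had a difference below 0, and the median difference was -1.24. Over all 8888 probe sets 47.3% were below 0 and the median was 0.0211. In leg 7 of the 12 rose and 5 did not pass, with a median change of 1.29, and in heart 0 passed, with a median of 0.067. The genes that rose in leg beside the 3 called were Tnnt1, Atp2a2, Tpm3 and Tnni1. The double differences of the list had medians of -1.29, -1.03 and -1.74 for numbers 1, 2 and 3.

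Tnnt1, slow troponin T, came closest to the threshold among these. Its probe set 161361_s_at read 5339, 5768 and 6655 in MDX leg and 19171, 22962 and 27836 in dKO leg, and 1200, 1744 and 2101 in MDX heart and 286.8, 2053.5 and 1814 in dKO heart. The leg groups stood apart and the heart groups overlapped. Its change was 1.94 in leg (adjusted p = 0.0175, limma) and -0.52 in heart, and the difference of -2.46 ± 0.39 did not pass (adjusted p = 0.0846, limma).

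Atp2a2, the calcium pump of slow fibres and heart, read 1576, 1169 and 2443 in MDX leg and 4687, 5350 and 7638 in dKO leg, against 22213 to 55913 in MDX heart and 23837 to 39851 in dKO heart. Its difference was -1.85 ± 0.31 (adjusted p = 0.102, limma), with double differences of -1.63, -1.85 and -2.07. Tpm3, slow tropomyosin, read 2055 to 4563 in MDX leg and 9749 to 11394 in dKO leg, and its difference was -1.85 ± 0.35 (adjusted p = 0.116, limma). Tnni1, slow troponin I, rose 1.98-fold in leg and had a difference of -0.63 (adjusted p = 0.423, limma). Mb, myoglobin, had the 1 difference above 0 in the list, 0.71 (adjusted p = 0.508, limma). Tnni1 and Mb were named after their values were seen.

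Summed over the 12 slow genes, intensity was 67707 to 106802 in MDX leg and 148723 to 206392 in dKO leg, so the leg groups did not overlap. In heart the sums were 91979 to 277436 in MDX and 118073 to 223464 in dKO. In bulk tissue, more slow fibres and more slow-gene RNA per fibre cannot be told apart, and the same holds for every cell type below.

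Of the 14 cardiac contractile genes tested 3 were lower in heart than in leg, and these were the same Tnnc1, Myl2 and Myh7. Differences below 0 numbered 12 of 14, and the median difference was -0.39. Myh6 (-0.17, adjusted p = 0.904, limma), the cardiac troponin I gene Tnni3 (-0.0229, 0.993) and the cardiac actin gene Actc1 (0.0922, 0.929) did not pass, and Myh6 and Tnni3 read at most 132.9 and 662.6 in leg. Tnnt2, troponin T of heart and of embryonic skeletal muscle, read 1030 to 1459 in MDX leg and 2426 to 5082 in dKO leg, with a difference of -1.37 ± 0.42 (adjusted p = 0.3, limma). Myl4, the atrial and embryonic light chain, rose 2.31-fold in leg (adjusted p = 0.0262, limma), with a heart change of 0.56 and a difference of -0.65 (adjusted p = 0.444, limma). Myh6, Tnni3, Actc1 and the natriuretic peptide genes that follow were named after their values were seen, apart from Nppa.

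Of the 14 cardiac stress genes tested 2 were lower in heart than in leg, Acta1 and Myh7, both of which skeletal muscle also makes. The list's median difference was -0.44. Postn, periostin of the matrix, rose 2.37-fold in leg (adjusted p = 0.0204, limma) and had a difference of -0.90 (adjusted p = 0.299, limma). Ankrd1, a stretch-responsive nuclear protein, read 25375.5 to 32357 over the 6 heart arrays and 3692 to 12904 over the 6 leg arrays, with a difference of -0.61 (adjusted p = 0.467, limma). The natriuretic peptides, which the strained heart secretes, had differences of 0.26 (Nppa, adjusted p = 0.752, limma) and 0.23 (Nppb, 0.831), and Nppa read 11864 to 18371 in MDX heart and 16210 to 18264 in dKO heart. The 8 atrial genes had a median difference of 0.26, with Myl7 at 0.26 and Sln at 0.48, and 0 passed for the difference. Myl4, given above, also belongs to this list, as the 1 member with a difference below 0 and the 1 that rose in leg.

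Of the 18 fast contractile genes tested 1 was called, Acta1, and 11 were below 0, with a median difference of -0.34. The medians by number were -0.66, -0.90 and 0.40, so the list changed sign with the arrays numbered 3. The summed intensity of the 19 fast genes on the array was 176329 to 629628 in MDX leg and 235377 to 448477 in dKO leg.

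Of 21 genes of regenerating and embryonic muscle tested 5 rose in leg and 16 did not pass. In heart and for the difference 0 passed, with median differences of -0.48, -0.49 and -0.45 for the 3 numbers. Myh3, embryonic myosin heavy chain, read 2049, 1345 and 2548 in MDX leg and 6628, 11846 and 7648 in dKO leg, and 21.3 to 105.9 over the 6 heart arrays. It rose 4.12-fold in leg (adjusted p = 0.0141, limma), and its difference was -1.94 ± 0.37 (adjusted p = 0.115, limma). Myh8, perinatal myosin heavy chain, had a difference of -0.93 (adjusted p = 0.261, limma), and Myf5, a transcription factor of satellite cells and myoblasts, one of -1.09 (adjusted p = 0.194, limma). Chrna1, the alpha subunit of the muscle acetylcholine receptor, rose 1.77-fold in leg and had a difference of -0.93 ± 0.20 (adjusted p = 0.166, limma). Among the 12 genes of the neuromuscular junction 11 had a difference below 0, with a median of -0.29 that was 0.25 for number 1.

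Macrophage genes had the second lowest median difference. Of 27 tested 26 were below 0, with a median difference of -0.81, a median change of 0.82 in leg and one of -0.0075 in heart, and 0 passed for the difference. In leg 4 rose and 23 did not pass. The medians by number were -0.34, -1.11 and -0.80. Summed over the 29 markers on the array, intensity was 59582 to 107719 in MDX leg and 100391 to 180222 in dKO leg, and 60334 to 68474 in MDX heart and 57427 to 69427 in dKO heart. The sums overlapped in both tissues, and no marker of the list passed in heart.

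Among the macrophage genes that rose in leg, C1qc, a subunit of the complement starter C1q, had the largest t. It read 5641, 4807 and 7315 in MDX leg and 8650, 9803 and 16148.5 in dKO leg, and 6774 to 9435 in MDX heart and 6282 to 8502 in dKO heart, with a difference of -1.02 ± 0.19 (adjusted p = 0.115, limma). Cd53, a leukocyte membrane protein, read 184.1, 218.6 and 1806 in MDX leg and 1322, 3508 and 2938 in dKO leg, with a difference of -2.62 ± 0.54 (adjusted p = 0.151, limma). Csf1r, the receptor of the macrophage growth factor, had a difference of -0.91 (adjusted p = 0.304, limma), made up of -0.24, -1.81 and -0.69 for the 3 numbers. Lyz2, lysozyme of macrophages, had one of -1.12 (adjusted p = 0.211, limma) and C1qb one of -1.34 (adjusted p = 0.214, limma).

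Genes of antigen presentation and the interferon response had the lowest median change in heart of the 32 lists. The median change was 0.22 in leg and -0.31 in heart, the median difference was -0.58, and 22 of 24 were below 0, with 0 passing. In heart 3 of the 24 changes were above 0. The sum over the 25 genes on the array was 73527 to 86191 in MDX heart and 60177 to 64626 in dKO heart, which do not overlap, and 50740 to 92666 in MDX leg and 69263 to 115171 in dKO leg, which do. The difference between these sums was not tested. The sum of the 15 adipocyte genes on the array also did not overlap in heart, with 31525 to 48980 in MDX and 26763 to 31264 in dKO. In leg the adipocyte sums overlapped, 0 of the 14 adipocyte genes tested passed in either tissue, and the part of fat cells in the antigen presentation values was not tested. Heart sums did not overlap in 2 of the 32 lists and leg sums in 8.

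H2-DMb1, which loads peptides onto class II molecules, read 1296, 781.6 and 1041 in MDX heart and 922.6, 279.2 and 321.5 in dKO heart, and 1180, 763.8 and 1075 in MDX leg and 1604, 1440 and 1674 in dKO leg. Every dKO leg array was above every MDX leg array, and the heart groups overlapped through dKO array 1. Its difference was -1.52 ± 0.25 (adjusted p = 0.0846, limma). The class II chain H2-Aa had a difference of -1.51 ± 0.29 and H2-Ab1 one of -1.18 ± 0.23 (adjusted p = 0.115 for both, limma), and both rose in leg. Psmb8, a subunit of the immunoproteasome, read 1988, 2142 and 2409 in MDX heart and 1444, 1406 and 1658 in dKO heart, with a difference of -0.96 ± 0.21 (adjusted p = 0.166, limma). Ifi27, an interferon-induced gene, also had heart groups that did not overlap, with a difference of -0.96 (adjusted p = 0.166, limma).

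Chemokine, cytokine and complement genes had a median difference of -0.52, with 12 of 14 below 0 and 0 passing. Ccl8, a monocyte attractant, read 1225, 283.8 and 1418 in MDX leg and 3861, 2995 and 3054 in dKO leg, and its difference was -1.60 ± 0.40 (adjusted p = 0.213, limma). Cxcl14 had a difference of -1.29 (adjusted p = 0.206, limma), with all 3 dKO heart readings (100.1 to 220.3) below the MDX heart readings (298.1 to 483.9).

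Of the 40 matrix genes tested 8 rose in leg, and none passed in heart or for the difference. In leg 7 of 12 slow contractile genes and 1.01% of all probe sets tested rose. The median difference was -0.45, and 32 of 40 were below 0. Eln, elastin, read 5630, 4782 and 8044 in MDX leg and 14190, 11986 and 18181 in dKO leg, and its heart readings overlapped, with a difference of -1.29 ± 0.24 (adjusted p = 0.115, limma). Col8a1, a short-chain collagen, had a difference of -1.22 ± 0.19 (adjusted p = 0.0846, limma), and Bgn, the proteoglycan biglycan, one of -0.97 ± 0.19 (adjusted p = 0.122, limma). Mmp3, a matrix-degrading protease, rose 2.96-fold in leg and had a difference of -1.21 (adjusted p = 0.205, limma). The 25 genes of cell division had a median difference of -0.23, with 21 below 0.

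**Figure D3:**
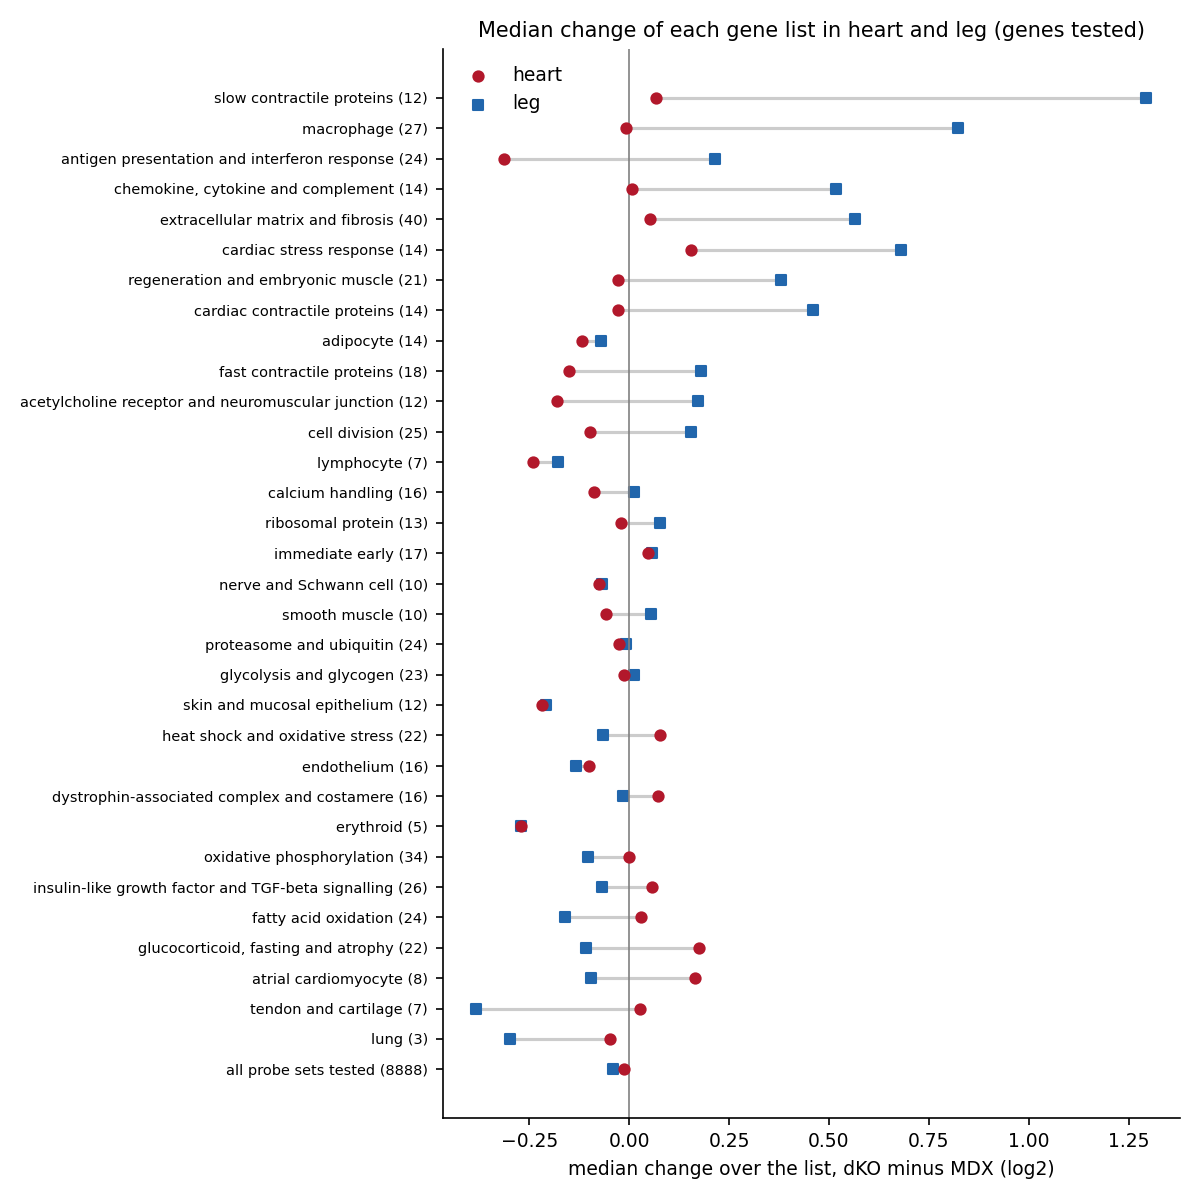
Median change from MDX to dKO (log2) of each gene list in heart (red circles) and leg (blue squares), with the number of genes tested in parentheses, ordered by the median heart minus leg difference, and all probe sets tested in the last line. Slow contractile proteins reach 1.29 in leg and macrophage genes 0.82, while the heart medians of the 32 lists lie between -0.31 and 0.17.

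Of the 3 lists of energy metabolism, those of fatty acid oxidation and oxidative phosphorylation had median differences above that of all probe sets and that of glycolysis and glycogen one below it. Of 24 genes of fatty acid oxidation 3 had a difference below 0, and the median difference was 0.23, made up of 0.0309 in heart and -0.16 in leg. Acadl, the long-chain acyl-CoA dehydrogenase, read 6251 to 7686 in MDX leg and 4453 to 6644 in dKO leg, with a difference of 0.54 ± 0.21 (adjusted p = 0.379, limma). Cpt1a, which admits fatty acids to the mitochondrion, went the other way (-0.78, adjusted p = 0.338, limma). Oxidative phosphorylation had a median of 0.13 over 34 genes, with medians of -0.30, 0.17 and 0.46 by number, and Cycs, cytochrome c, a difference of 0.67 ± 0.18 (adjusted p = 0.246, limma). Of 23 glycolysis and glycogen genes 1 fell in leg, Phkg1, the catalytic subunit of muscle phosphorylase kinase, with a difference of 0.75 (adjusted p = 0.258, limma), and the list's median was -0.00945.

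The dystrophin-associated complex and costamere, the structure to which both missing proteins belong, had a median difference of 0.0739 over 16 genes, and 0 passed in either tissue or for the difference. Nos1, the neuronal nitric oxide synthase held at the membrane by this complex, read 577.5, 443.7 and 993.5 in MDX leg and 117, 329.8 and 168.7 in dKO leg, and 101.8 to 239.7 over the 6 heart arrays. The leg groups did not overlap, but its difference of 1.25 ± 0.41 did not pass (adjusted p = 0.338, limma). Sgca, alpha-sarcoglycan, had a difference of 0.46 (adjusted p = 0.437, limma), and Dtna, alpha-dystrobrevin, one of 0.58 (adjusted p = 0.426, limma).

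Of 26 genes of insulin-like growth factor and TGF-beta signalling 1 rose in leg, and 0 passed in heart or for the difference, with a median difference of 0.14. Igfbp4, which binds insulin-like growth factors, rose 1.92-fold in leg with a difference of -1.01 ± 0.21 (adjusted p = 0.153, limma), and Fst, follistatin, had one of -1.17 (adjusted p = 0.258, limma). Mstn, myostatin, which limits muscle growth, had a difference of 0.86 ± 0.27 (adjusted p = 0.309, limma), with leg readings of 1688, 1371 and 835.5 in MDX and 880.1, 643.4 and 662.5 in dKO. Klf9, a glucocorticoid-responsive factor, had one of 0.54 (adjusted p = 0.372, limma) in a list of 22 whose median was 0.25.

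Other cell types were followed through their markers. Median differences were -0.16 for lymphocyte genes, -0.36 for adipocyte, 0.0636 for endothelium, -0.0408 for smooth muscle, -0.0688 for nerve and Schwann cell, 0.12 for erythroid, 0.41 for tendon and cartilage and 0.42 for lung genes, and 0 members of these lists passed for the difference. Hba-a1, an alpha-globin gene, read 20871 to 28878 on the heart arrays numbered 3 and 943.7 to 2395 on the other heart arrays. The heart sums of the oxidative phosphorylation genes were also highest on number 3. They were 598495, 537229 and 1136390 in MDX and 524716, 599056 and 1058710 in dKO for numbers 1, 2 and 3. Blood RNA and array brightness were not separated, and the part of either in the differences was not tested. The remaining lists had medians of -0.0991 for ribosomal protein genes, -0.0699 for immediate early genes, -0.0352 for proteasome and ubiquitin, 0.00593 for skin and mucosal epithelium, 0.0614 for heat shock and oxidative stress and -0.13 for calcium handling.

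Several genes named above had a further tested probe set that did not share the value given. The second sets of Tnnt1 (101383_at, 0.74 in leg), Bgn (162347_f_at, 0.37) and Eln (92207_at, 0.85) were higher in dKO leg without passing, with differences of -1.03, -0.45 and -0.81. Those of C1qb (162276_i_at, 0.72), Igfbp4 (94222_at, 0.23) and Myl4 (100828_at, 0.0941) had differences above 0, and those of Sgca (103395_at, -0.13) and Dtna (92184_at, -0.0162) below 0, and none passed. The second set of Csf1r (161832_r_at) had a leg change of -0.00779.

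In the direction of a higher change in heart, 0 probe sets passed, and the 5 with the largest t are given as not passed. Hoxa13, a patterning factor of the distal limb, read 319, 388.1 and 653.8 in MDX leg and 84.4, 103 and 215.3 in dKO leg, and 135.5, 120.4 and 151.4 in MDX heart and 540.1, 319.5 and 255.8 in dKO heart. Neither tissue's groups overlapped, and they went in opposite directions. Its difference was 1.83 ± 0.30 (adjusted p = 0.0866, limma), with a change of -1.03 in leg (0.0537) and of 0.80 in heart (0.61).

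Ighm, the heavy chain of immunoglobulin M made by B cells, read 2082, 1033 and 1108 in MDX leg and 321.2, 327.7 and 277.9 in dKO leg with probe set 93584_at. It fell in leg (log2 -1.67, adjusted p = 0.00506, limma), and its difference was 1.27 ± 0.25 (adjusted p = 0.122, limma). A second probe set, 93583_s_at, also fell in leg (adjusted p = 0.0289, limma) but had a heart change of -0.93 and a difference of 0.25. The other 3 Ighm probe sets tested did not pass in leg, with changes of -0.25 (100362_f_at, adjusted p = 0.498, limma), -0.16 (101346_at, 0.848) and -0.41 (97568_at, 0.647). Their differences were 0.0433, 0.0926 and -0.13, and 0 passed. Tlcd4 had a difference of 1.78 ± 0.33 (adjusted p = 0.115, limma), Ephx2, the soluble epoxide hydrolase, one of 1.37 ± 0.28 (adjusted p = 0.144, limma), and Lgalsl one of 1.16 ± 0.24 (adjusted p = 0.151, limma). Ephx2 and Lgalsl fell in leg.

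**Figure D4:**
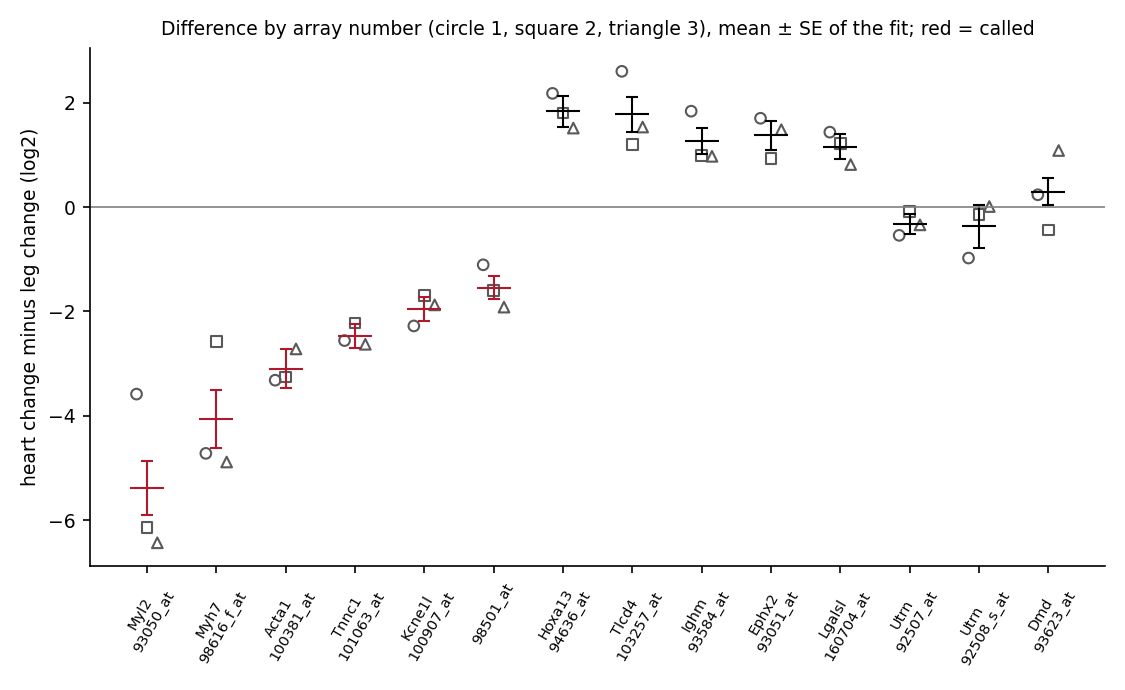
Heart change minus leg change (log2) for each array number (circle 1, square 2, triangle 3), with the mean of the fit and its SE, for the 6 probe sets called (red), the 5 of largest t in the other direction, Utrn and Dmd. The symbols of the 6 called lie below 0 for all 3 numbers, from -6.43 to -1.11, and those of Dmd lie on both sides of 0.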

How the data were processed

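Heart and leg RNA was hybridised to Affymetrix arrays, 1 array for each sample. The table deposited by the authors holds 1 intensity per probe set and array on a linear scale. Their trimmed means (2% off each tail) are nearly equal, so the values had been scaled before deposit. The software and the detection calls are not given in the sources used here. All columns used belong to these arrays, and 0 columns belong to another series.

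Of 12488 probe sets, 66 hybridization and labelling controls were removed (0 of them passed for the heart minus leg difference in change, smallest adjusted p 0.804, limma). Among the remaining 12422, the probe table pairs 10833 with 1 gene symbol, 396 with several and 1193 with none. Probe sets were named only where there was 1. Probe sets above the 40th percentile of an array on at least 3 of 18 arrays were tested, 8888 in all. Values were taken as log2(intensity + 166.7), where the offset is the median over arrays of each array's 25th percentile. Changes of dim probe sets are therefore understated. Group means of all 18 arrays, blocked by array number in each tissue, were fitted by lmFit, contrasts.fit and eBayes of limma 3.58.1, run under R 4.3.3 (6 residual and 3.79 prior degrees of freedom). Tests were two-sided, and p-values were adjusted by Benjamini and Hochberg over the 8888 probe sets within a contrast.

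The block was used because the comparison pairs the arrays by the numbers in their titles. Within a tissue, the dKO and MDX arrays sharing a number departed from their groups' means in a like way (median r = 0.606 over 6 pairs, across probe sets). Pairs of unequal number had r of -0.600 to 0.261. Departures from a group's mean cancel out within the group, so these pairs go low where same-number pairs are high. Their r is therefore no separate support for the block. Between heart and leg arrays of the same number r was 0.353 to 0.698 over 12 pairs. For Utrn and Dmd the tissues were also exchanged over the 6 pair differences in an exact permutation test.

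The members and the 32 gene lists were chosen with earlier results of these data known. Each list gene was represented by its probe set of highest mean. The genes named were Utrn and Dmd, then the called probe sets whose 3 double differences share the sign of the mean, up to 15 in each direction by absolute log2 difference. A direction with under 5 such was given the 5 of largest absolute t as not passed. Up to 2 called probe sets without a single symbol were given by ID, and at most 6 genes of each list, called ones first and then by absolute t. The alternatives were other blocks, scalings, offsets, filters, moderation and left-out arrays. The fits were also run on simulated data with known leg changes and a number effect built in within each tissue. That simulation held no effect shared by heart and leg, so it is no test of whether the block suits these arrays. Promoter windows came from RefSeq (GRCm38.p6), and the plots were made by matplotlib 3.10.9 (Python 3.11.15).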

Additional observations from a re-analysis of the deposited data

Results flagged for a closer look

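The 6 probe sets called for the difference stand here because the change from MDX to dKO in heart and that in leg differed by the test of the difference itself (limma with the replicate block). The heart minus leg differences were -5.39 for Myl2, -4.06 for Myh7, -3.10 for Acta1, -2.47 for Tnnc1, -1.95 for Kcne1l and -1.54 for 98501_at, each with 3 of 3 double differences below 0. The adjusted p was 0.00617 for Myl2 and Tnnc1, 0.0208 for Acta1 and Kcne1l and 0.0441 for Myh7 and 98501_at. In groups of 3 no single array was tested for standing apart.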

How the results depend on the processing

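The count of 6 called probe sets, all lower in heart than in leg, became 0 with no replicate block, and 0 with the 12 heart and leg arrays alone and no replicate block. With the 12 arrays and the replicate block it was 3, and with the block as a random effect 38, 7 of them higher (5 of the 6 were among them). A small offset of 16 gave 2, a large offset of 500 gave 30, and trend and robust moderation gave 35. Leaving out arrays gave 0 to 8, namely 1, 1 and 0 without the arrays numbered 1, 2 and 3, and 2 without heart array 3 or leg array 1 of either genotype. In the blocked fit, leaving out 1 array removes its pair, so both genotypes give the same value. The count was 6 with 75th percentile scaling and 7 with median scaling. It was 4 with quantile normalization, 4 with no filter and 5 with the stricter filter. Adding to the block a genotype change by array number, shared by the tissues, also gave 6 (5 of the 6 were among them). Every alternative that gave a value kept the 6 differences below 0. They ran from -6.29 to -4.75 for Myl2, -4.86 to -3.51 for Myh7, -3.47 to -2.65 for Acta1, -2.70 to -2.30 for Tnnc1, -2.79 to -1.30 for Kcne1l and -2.53 to -0.92 for 98501_at. The count of probe sets called in leg, 107, was 27 with the 12 arrays and the replicate block, 2 with the 12 arrays and no block, 34 with the small offset, 264 with the large offset, 270 with the stricter filter and 298 with trend and robust moderation, and 89 to 118 with no filter or other scalings. Differences that changed sign were those of Nppa without the arrays numbered 2 (-0.0627), Dmd without those numbered 3 (-0.10) and Utrn 92508_s_at without leg array 1 of either genotype (0.0353). Left-out arrays moved Nppa between -0.0627 and 0.53, Dmd between -0.10 and 0.66 and Utrn 92508_s_at between -0.77 and 0.0353. The causes were not tested. Utrn and Dmd fell below the stricter filter and have no value there. Readings near the offset limit what dim probe sets can show.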

Other observations

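Beyond the lists, the probe sets nearest to the threshold were also lower in heart than in leg; they were chosen after their values were seen. Sox11, a transcription factor of developing tissues, read 232, 532.6 and 511.1 in MDX leg and 876.2, 1414 and 1411 in dKO leg, and 171.9 to 480.4 in MDX heart and 127 to 349.7 in dKO heart. It rose in leg (log2 1.26, adjusted p = 0.0151, limma), and its difference was -1.64 ± 0.24 (adjusted p = 0.0596, limma). Plac8, a gene of leukocytes and other cells, read 1069, 1123 and 1243 in MDX leg and 2779, 2738 and 3949 in dKO leg, and 675.7 to 1206 in MDX heart and 637.1 to 1041 in dKO heart. It rose 2.50-fold in leg, and its difference was -1.51 ± 0.24 (adjusted p = 0.0846, limma). The unnamed probe set 100071_at rose 2.40-fold in leg with a heart change of 0.00742.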
